A study of Ovis aries with 49 samples.

Results

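Developmental transcription factor families were followed across 5 adipose depots of lambs. The genes were taken by symbol from the platform annotation: FOX followed by a letter and a digit, GATA followed by a digit, and any symbol of the SOX, KLF, TBX, SIX-, IRX, NKX, TWIST, PRRX or HES type by its first letters. The rule found 72 of the 10273 probe sets, each with a symbol of its own, made up of 21 FOX, 10 SOX, 12 KLF, 5 GATA, 8 TBX, 5 SIX-type, 4 IRX, 2 NKX, 1 TWIST, 1 PRRX and 3 HES entries. Of these, 68 are transcription factor genes. The other 4 matched by spelling only, namely the antisense transcripts FOXN3-AS2, SIX3-AS1 and SOX9-AS1 and the thromboxane receptor TBXA2R, and they are kept in the counts. The animals were Bluefaced Leicester cross Swaledale twin lambs (sheep, Ovis aries), and each mother's sex-matched twins were divided between 7 and 28 days of age. Epicardial, omental, perirenal, sternal and subcutaneous fat of both ages gave 49 arrays, 24 at 7 days and 25 at 28 days, in groups of 5 arrays except subcutaneous fat at 7 days with 4. The labels do not state what the mothers ate, and their titles carry a letter C without explanation. Arrays are lettered here by replicate number, from A to G in the younger and from H to O in the older lambs. Since nothing in the labels defines a number as an animal, p-values measure the spread between these arrays, and changes with age treat twins as independent.

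Forkhead (FOX), SOX, Krüppel-like (KLF), GATA, T-box (TBX), SIX-type homeobox, Iroquois (IRX), NK homeobox (NKX), TWIST, PRRX and HES proteins bind DNA through family-specific domains and turn other genes on or off during the patterning of tissues. In fat, several KLF factors act within the cascade that forms adipocytes, FOXO factors respond to insulin through AKT, HES1 is a repressor induced by Notch receptors, and IRX, TBX and TWIST genes often keep a regional pattern from the embryo. KLF2, KLF4 and KLF6 are also induced rapidly by stress or growth stimuli in many cells.

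Sheep RNA was hybridised to a human array, and levels are log2 values made with GCRMA, a background correction based on probe sequence. A level of 4 lies above 82.7% of all values in the table. Levels are compared between groups for the same probe set and never between genes, because probe sets bind sheep RNA with different strength. In such bulk samples fewer cells of a type and less RNA per cell cannot be told apart. Only 22 of the 72 entries reached a mean of 4 in any group, 38 stayed below a mean of 3 in every group and 46 had no array at 4, so for most of them low expression and weak binding of the human probes were not told apart. Many identical values recur within a probe set. In 61 of the 72, and in 81.7% of all probe sets, the same value, equal to within 1e-06, was found on at least 10 arrays. In 59 of the 61 it was the median of the probe set over all arrays. Some groups below therefore have almost no spread, and what the repeated values do to the standard errors was not tested.

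Of 10 adipocyte markers 7 were measured, and DGAT2, an enzyme of triglyceride synthesis, had group means of 8.86 to 10.60. The other 6 stayed lower in all groups, with means of at most 3.83 for the lipase PNPLA2, 2.75 to 3.17 for LIPE, 2.71 to 3.42 for LPL, 2.70 to 3.40 for PPARG, 2.59 to 2.80 for FABP4 and 2.49 to 2.68 for CIDEC. Markers of other tissues were present in part of the arrays. The 6 measured genes of a cardiomyocyte list averaged between 6.58 and 9.57 on the 5 epicardial arrays at 7 days and between 7.16 and 9.31 on 4 of those at 28 days, while array I at 28 days averaged 2.76. The muscle creatine kinase gene CKM exceeded 4 on 9 sternal and subcutaneous arrays: sternal D and subcutaneous A, E and G at 7 days, and sternal J, N and O and subcutaneous J and M at 28 days. These 9 are called the CKM arrays below. CKM was also high on the epicardial arrays, 8.06 to 11.63 at 7 days and 6.82 to 10.53 at 28 days except on array I (2.76). The epicardial arrays were kept when the 9 were left out. The skeletal muscle list (9 measured genes) averaged 8.09 on subcutaneous array A and 7.72 on sternal array J. On the same arrays the cardiomyocyte list averaged 6.57 and 6.03, and it averaged 4.53 on subcutaneous array G. High values of that list were thus not confined to epicardial fat. The tissue mass taken for RNA also differed between the ages, so age and mass cannot be told apart. Sternal arrays at 28 days were lower over all probe sets, with a group mean of 3.27 against 3.40 to 3.42 in the other depots of that age. Quantile normalization, which removes such a shift, is therefore given beside the results that it changed.

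KLF genes were the family with most entries above the low range, 8 of 12, against 7 of 21 FOX, 4 of 10 SOX, 1 of 5 SIX-type, 1 of 4 IRX and 1 of 3 HES genes. No GATA, TBX, NKX or PRRX entry, and not TWIST1, had a group mean of 4. For 6 families 1 entry each was named by its mean over all arrays, which does not rank expression between genes, since probe sets differ in response. Group means ran from 8.78 to 9.78 for FOXP1, 6.11 to 7.03 for SOX5, 7.85 to 8.69 for KLF3, 3.56 to 4.88 for SIX4, 3.02 to 4.73 for IRX5 and 3.56 to 4.66 for HES1. GATA3 stayed between 2.76 and 2.97, the early mesoderm factor TBXT between 2.69 and 3.03, the cardiac factor NKX2-5 between 2.53 and 2.95 and PRRX1 between 2.49 and 2.71 in all 10 groups, and none of these 4 was called in any comparison. NKX2-5, at most 3.54 on any array, was also low on the epicardial arrays with high cardiomyocyte markers. RYR2 of the cardiomyocyte list was low there too (group means of 2.69 and 2.67). Low expression and weak binding of the human probes were not told apart for either gene. In all, 37 of the 72 were called in no comparison. The share of all probe sets called in none is not given here, so this count does not set the members apart from the whole table.

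**Figure D1:**
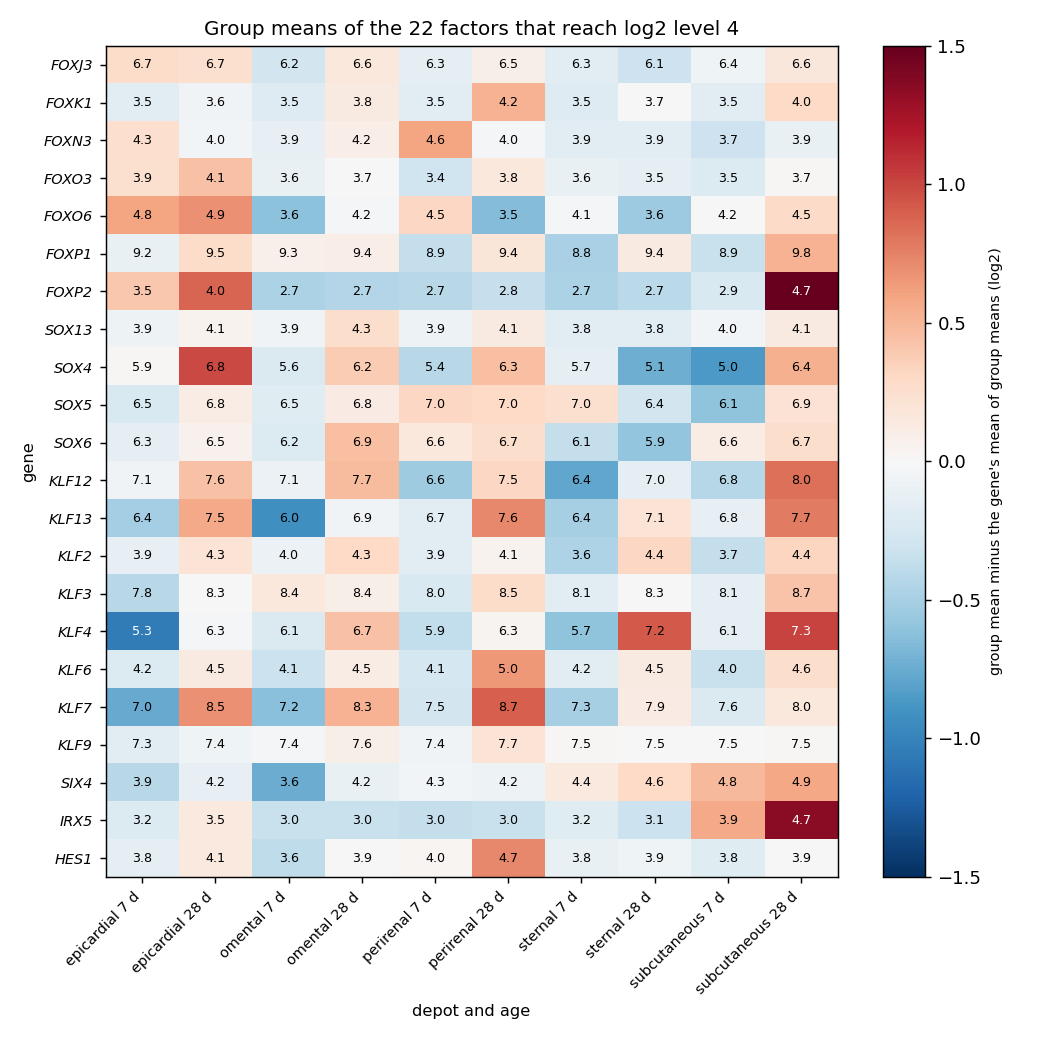
Group means (log2, numbers in the cells) of the 22 entries that reached 4 in at least 1 of the 10 groups, with colour giving the difference from the gene's own mean over the groups. The darkest cells are FOXP2 and IRX5 in subcutaneous fat at 28 days (4.66 and 4.73), and the KLF rows are mostly bluer at 7 days and redder at 28 days.

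Differences between the depots were called for 3 of the 72 at 7 days (SOX12, FOXN3 and KLF4), against 8.16% of all probe sets, and for 17 at 28 days, against 20% of all. The calls are F tests over the 5 depots in limma with Benjamini-Hochberg adjustment over all probe sets at 0.05. Among entries with an overall mean of at least 4 the shares were 2 of 17 at 7 days and 8 of 17 at 28 days, against 27.6% and 57.1% of all probe sets at that level. KLF4 was the only one called at both ages.

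Each depot was then set against the mean of the other 4. At 7 days, epicardial fat had 3 higher (FOXP2, FOXJ3, FOXO3) and 1 lower (KLF4), with 3.35% of all probe sets higher and 0.72% lower. Called in either direction were 4.07% of all in that comparison. Perirenal fat had 3 higher (FOXN3, FOXL1, SOX15), where 4.58% of all probe sets were higher and 5.11% called. Sternal fat had 1 lower (SOX12), where 0.925% of all were lower and 1.2% called. No entry was called in omental or subcutaneous fat by limma, where 1.54% and 1.53% of all probe sets were, although 10 and 8 had an unadjusted p under 0.05. At 28 days 7 were called in epicardial fat, 6 higher and 1 lower, against 3.24% of all probe sets, 2.74% higher and 0.506% lower. In omental fat 1 was higher and 2 lower, against 5.12% of all called, 4.76% higher and 0.36% lower. In perirenal fat 3 were higher and 2 lower, against 3.36% called, 2.87% higher and 0.487% lower. Sternal fat had 1 higher and 14 lower, where 20.1% of all were called, 1.65% higher and 18.4% lower. In subcutaneous fat 6 were higher, against 3.04% of all called and 2.58% higher. After quantile normalization the split became 1 higher and 3 lower in epicardial fat and 2 lower in perirenal fat at 7 days. At 28 days it became 4 higher and 2 lower in epicardial fat, 3 higher and 2 lower in sternal fat and 4 higher and 1 lower in subcutaneous fat. The share of all probe sets called after that normalization is not given here. These splits therefore do not tell a change of the members from a change over the whole table.

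The clearest depot pattern was that of FOXP2, a forkhead repressor. Its levels in subcutaneous fat at 28 days were 4.43, 4.61, 5.25, 4.96 and 4.06 on arrays H, I, J, M and N, against 2.83, 2.77, 2.64 and 3.42 on arrays A, F, G and E at 7 days. All 5 later arrays lay above all 4 earlier ones, and the rise was 1.75 ± 0.24 (SE) on the log2 scale (adjusted p = 4.07e-06). Epicardial fat held the other high values, with 3.81, 4.76, 3.37, 4.27 and 3.88 on arrays I, J, L, N and O at 28 days and a wider range at 7 days, where A read 4.63, C 3.63 and E 3.92 but D and G both 2.77. The 30 arrays of omental, perirenal and sternal fat stayed at or below 3.02 at both ages, and array I, the epicardial array without cardiomyocyte signal, lay within the range of the other epicardial ones. At 28 days FOXP2 was 1.60 ± 0.16 higher in subcutaneous fat than in the mean of the other depots (adjusted p = 1.16e-06) and 0.80 ± 0.16 higher in epicardial fat (adjusted p = 0.00404), and it was called lower in omental, perirenal and sternal fat, each set against a mean that holds both high depots. The epicardial difference at 7 days (0.80 ± 0.19, adjusted p = 0.0156) was lost without array A or array E, with an adjusted p of up to 0.0639.

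IRX5, an Iroquois homeobox gene, and TWIST1, a bHLH repressor of mesenchymal cells, were highest in the same depot. IRX5 read 4.87, 4.04, 4.92, 4.82 and 4.99 in subcutaneous fat at 28 days. Omental, perirenal and sternal arrays of that age all read between 3.03 and 3.06, and among epicardial arrays O alone was high at 4.93, beside 3.05 to 3.49 on the others. The difference of subcutaneous fat from the other depots was 1.56 ± 0.19 (adjusted p = 3.60e-05). At 7 days the 4 subcutaneous arrays already spread from 3.27 to 5.19 (A 3.92, F 3.27, G 3.41, E 5.19), and neither that difference (0.84 ± 0.23, adjusted p = 0.0677) nor the change with age (0.78 ± 0.27, adjusted p = 0.0608) passed the threshold.

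TWIST1 read 4.07, 3.85, 4.15, 4.17 and 3.59 in subcutaneous fat at 28 days and 2.74, 2.74, 2.75 and 3.49 at 7 days, so that the ages did not overlap. It rose by 1.03 ± 0.15 (adjusted p = 2.17e-05) and stood 1.09 ± 0.13 above the other depots at 28 days (adjusted p = 2.80e-05). Sternal array M at 3.62 was the only array of another depot within the later subcutaneous range. The lower value of epicardial fat (0.50 below the other depots, adjusted p = 0.0326) was lost without array L, N or O, with an adjusted p of up to 0.112. These subcutaneous results of FOXP2, IRX5 and TWIST1 at 28 days, and the rises of FOXP2 and TWIST1, were still called after quantile normalization. The differences between depots at 28 days were also called without the 9 sternal and subcutaneous arrays carrying CKM. Without those arrays the 2 rises rest on array F alone at 7 days, which is assumed to vary like the other groups.

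Basic helix-loop-helix partners of TWIST1 (TCF3, TCF4, TCF12 and HAND1) and the ID proteins that titrate such proteins (ID1 to ID4) were measured by 8 probe sets. TCF12, a dimer partner, was 0.47 higher in subcutaneous fat at 28 days, the only 1 of the 8 called there, against 3.04% of all probe sets. None of the 8 was called as changed with age in that depot, against 9.25% of all. Fibroblast marker genes also moved in this depot. The fibroblast list (8 genes) averaged from 6.31 to 6.85 on the 7-day and from 6.73 to 7.41 on the 28-day subcutaneous arrays, against 6.32 to 7.20 on sternal, 6.37 to 6.88 on omental, 6.28 to 6.38 on epicardial and 5.57 to 6.25 on perirenal arrays at 28 days. The subcutaneous range at 28 days thus overlapped those of sternal and omental fat. Its part in the TWIST1 and FOXP2 results was not tested.

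**Figure D2:**
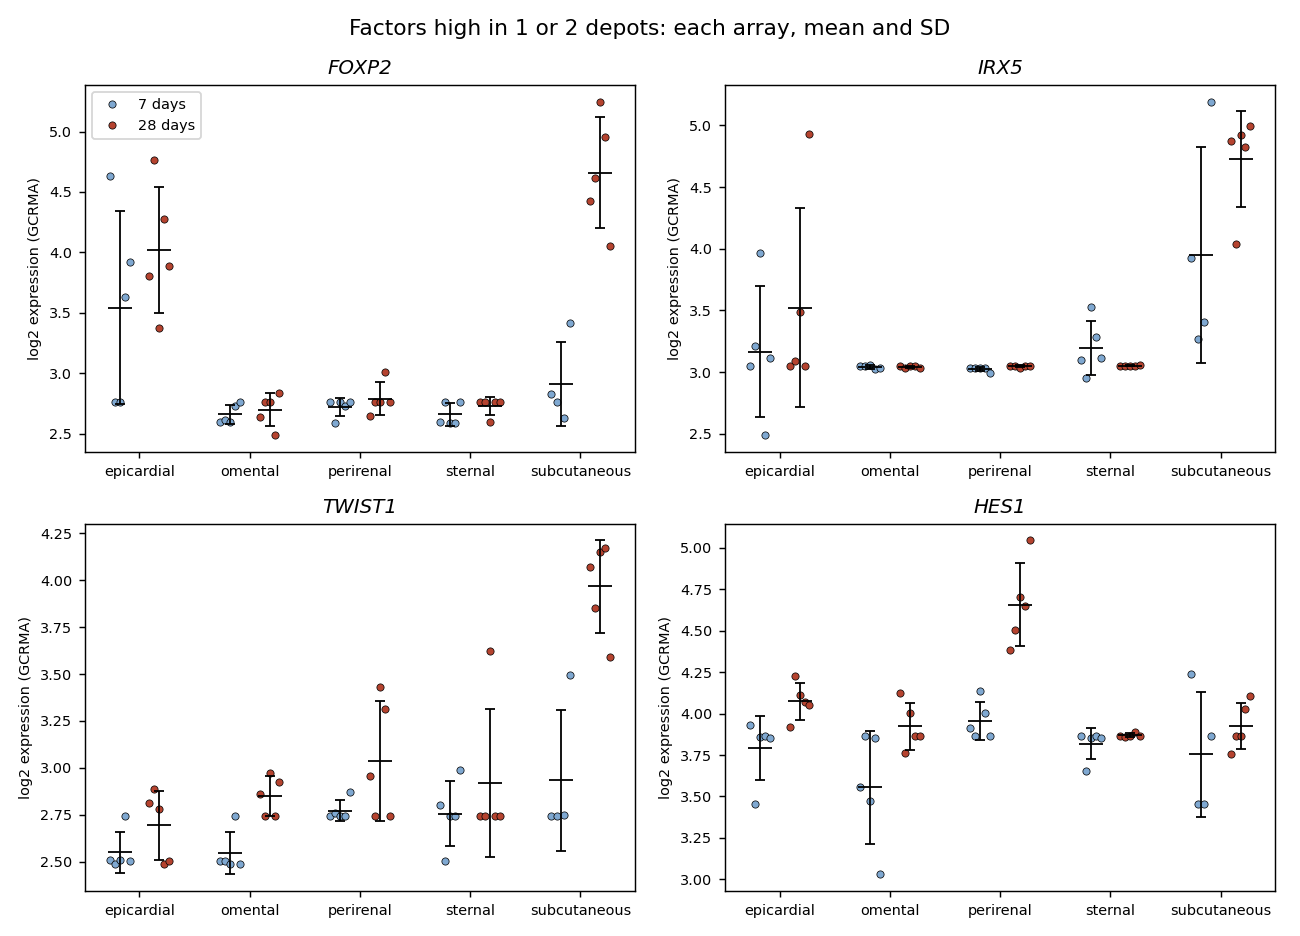
Log2 levels of FOXP2, IRX5, TWIST1 and HES1 on every array, by depot and age (blue 7 days, red 28 days), with bars for the mean and SD of 4 or 5 arrays. FOXP2 and TWIST1 in subcutaneous fat at 28 days lie above all subcutaneous arrays at 7 days, IRX5 shows 1 high epicardial array at 4.93, and HES1 is highest on the 5 perirenal arrays at 28 days (4.38 to 5.05).

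Among the other FOX genes, FOXP1, which regulates progenitor fates and is closely related to FOXP2, was high everywhere and called as a rise with age in 3 depots. In subcutaneous fat it went from 8.93 ± 0.05 (SD, n = 4) to 9.78 ± 0.43 (SD, n = 5), with every later array above every earlier one (0.85 ± 0.19 SE, limma adjusted p = 0.00221). The rises in sternal (0.62 ± 0.17, adjusted p = 0.0205) and perirenal fat (0.53 ± 0.17, adjusted p = 0.0450) were lost in 4 and 7 of the fits that left out 1 array, with adjusted p up to 0.113 and 0.176, and the perirenal one also after quantile normalization (0.30, adjusted p = 0.473). In omental fat the change was 0.03 ± 0.17. FOXP4, another repressor of that group, was near the low end but changed in omental fat, from 2.61, 2.49, 2.85, 2.96 and 2.49 to 3.81, 3.26, 3.68, 3.11 and 3.52. Every later array was above every earlier one (0.79 ± 0.10, adjusted p = 3.64e-07), and omental fat stood 0.40 ± 0.09 above the other depots at 28 days (adjusted p = 0.00888). The earlier readings of 2.49 lie at or next to the lowest value of the table, so the size of the rise is uncertain.

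FOXO factors are held in the cytoplasm when insulin signals through AKT and 14-3-3 proteins. FOXO6 separated the depots at 28 days, with 4.43, 5.37, 4.66, 4.23 and 5.62 in epicardial fat and 4.04, 3.52, 3.58, 3.31 and 3.14 in perirenal fat. No array of these depots overlapped, and the differences from the other depots were 0.92 ± 0.20 (adjusted p = 0.00901) and -0.76 ± 0.20 (adjusted p = 0.0313). Perirenal fat had read 5.44, 4.56, 4.12, 4.12 and 4.17 at 7 days, and the fall was 0.97 on the log2 scale (SE 0.27, adjusted p = 0.0162). The fall was lost without array A at 7 days or K at 28 days (adjusted p up to 0.102), the epicardial call without array O (0.0505) and the perirenal difference without array J, M, N or K (up to 0.132). The FOXO6 probe set carries the Affymetrix suffix for probes that can also bind other sequences. FOXO3 was higher in epicardial fat at both ages, by 0.43 ± 0.10 at 7 days (adjusted p = 0.0203) and 0.43 ± 0.10 at 28 days (adjusted p = 0.0148). The first was lost without array A or G (adjusted p up to 0.116) and the second without array J (0.0563), which alone read 4.72 beside 3.84 to 4.03, and quantile normalization ended both (0.103 and 0.0566). Of 22 probe sets for regulators of FOXO proteins, 2 were higher and 1 lower in epicardial fat at 7 days, where 3.35% of all probe sets were higher and 0.72% lower. In sternal fat at 28 days 5 of the 22 were lower, against 18.4% of all. The insulin-like growth factor receptor IGF1R had the largest of the 3 epicardial differences at 7 days, 1.07 ± 0.14.

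FOXN3, a forkhead repressor of cell cycle and hepatic glucose genes, was highest in perirenal fat at 7 days, with 5.04, 4.06, 4.52, 5.03 and 4.59. The mean of 4.65 was 0.68 ± 0.15 above the other depots (adjusted p = 0.00773; 0.0899 after quantile normalization) and fell by 0.62 to 28 days (SE 0.17, adjusted p = 0.0134), although the ages overlapped. The fall was lost without array A or B at 7 days (adjusted p up to 0.0638). FOXL1, a mesenchymal factor, read 2.62, 2.72, 3.64, 2.82 and 2.53 in perirenal fat at 7 days. It was called in the same comparisons, but the depot difference (0.36, adjusted p = 0.0499) was lost when any 1 of 20 arrays was left out, and the fall without array G (0.0821). The brown adipocyte list (5 measured genes) averaged 4.14 to 4.95 on perirenal arrays at 7 days and 3.12 to 3.54 at 28 days. Group means there fell for UCP1 (6.29 to 2.91) and PPARGC1A (6.53 to 4.09). EBF2 (3.99 and 3.98), CIDEA (2.69 and 2.76) and ADRB3 (2.66 and 2.50) changed little. The list mean also fell in sternal (3.85 to 4.14, then 2.97 to 3.10) and epicardial fat (3.82 to 4.22, then 3.23 to 3.72). The part of this list in the falls of FOXN3, FOXL1 and FOXO6 was not tested.

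SOX4, a SOX factor of progenitor cells, had the largest depot difference among SOX genes. At 28 days sternal arrays read 3.64, 5.49, 5.87, 5.32 and 5.22, and all arrays of the other depots lay between 5.99 and 7.05. The sternal difference was -1.32 ± 0.21 (adjusted p = 0.000128) and was still called after quantile normalization and without the CKM arrays. Epicardial fat was highest, with 6.56, 6.79, 6.87, 7.05 and 6.90 (0.83 ± 0.21 above the other depots, adjusted p = 0.0289), a call that was lost without array J, L, N or O (adjusted p up to 0.0807) and after quantile normalization (0.0585). Between the ages SOX4 rose in subcutaneous (1.39 ± 0.29, adjusted p = 0.00145), epicardial (0.97 ± 0.27, adjusted p = 0.0231) and perirenal fat (0.87 ± 0.27, adjusted p = 0.0340), each without overlap of the ages. The epicardial and perirenal calls were lost in 3 and 5 of the fits that left out 1 array (adjusted p up to 0.0977 and 0.160), and the perirenal one after quantile normalization (0.0962). Sternal fat changed the other way, by -0.59 ± 0.27 (adjusted p = 0.250), from 5.32 to 5.87 at 7 days.

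SOX5 and SOX6, related factors that act together in cartilage, were also lower in sternal fat at 28 days, by 0.47 and 0.85. SOX5 read 6.73, 6.60, 6.59, 6.20 and 6.08 there against 6.45 to 7.44 in the other depots (SE 0.13, adjusted p = 0.0132). SOX6 read 6.20, 6.20, 5.95, 4.74 and 6.21 against 6.20 to 7.30 elsewhere (SE 0.18, adjusted p = 0.00157). Quantile normalization ended both calls (-0.16, adjusted p = 0.481 and -0.49, adjusted p = 0.0557), and SOX5 was also lost without array N or O (adjusted p up to 0.0654). SOX12 was lowest in sternal fat at 7 days, 2.64 to 2.86 against 2.85 to 3.74 in the other depots (-0.44 ± 0.09, adjusted p = 0.0200), and this was lost without array G or E (adjusted p up to 0.0600). With 14 entries lower and 1 higher, sternal fat at 28 days had 10 calls among the 17 entries at a mean of at least 4, or 58.8%, against 52.9% of all probe sets at that level. The median difference of those 17 was -0.30, against -0.33 for all probe sets at that level. Of the named members, FOXJ3, FOXO3, FOXO6, SOX5, SOX6, KLF7, KLF12, KLF13 and HES1 were no longer called lower after quantile normalization, FOXP2 and SOX4 were, and the differences of FOXO3 (0.03) and HES1 (0.09) turned positive. The number called was 8 without array I, N or O, and 6 without the CKM arrays, given without the share of all probe sets in those fits. FOXJ3, a widely expressed forkhead gene, shows the pattern at small size: sternal fat read 6.09, 6.10, 5.98, 6.49 and 6.10 beside 6.48 to 7.00 in the other depots.

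Changes with age were mostly rises. Of the 29 entries called in at least 1 depot, 26 were called only as rises. No share of all probe sets is given for these counts over several depots. There were 6 rises in epicardial fat, where 4.21% of all probe sets rose and 5.84% were called, and 11 in omental fat, where 13.5% rose and 14.6% were called. Perirenal fat had 10 rises and 3 falls, against 6.23% rises and 3.09% falls among all probe sets (9.32% called). There were 4 rises in sternal fat (2.47% of all rose, 6.37% called) and 13 in subcutaneous fat (7.68% rose, 9.25% called). Among the 17 entries with a mean of at least 4, all 17 were higher at 28 days in subcutaneous fat, with a median change of 0.56 against 0.19 for all probe sets at that level. In sternal fat 9 of the 17 were higher, with medians of 0.16 and -0.07. After quantile normalization 2 rises were called in omental and 8 in subcutaneous fat, again given without the share of all probe sets. Without the CKM arrays 3 were called in subcutaneous fat (FOXP2, TWIST1 and KLF4) and 2 in sternal fat (KLF4 and KLF2). The subcutaneous 7-day group is then array F alone, assumed to vary like the other groups. The omental number fell to 5 without array I and to 7 without D or O, and the perirenal number to 7 without array A.

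KLF genes gave the most rises by number: 3 in epicardial, 3 in omental, 5 in perirenal, 3 in sternal and 6 in subcutaneous fat. There were 12 measured, 8 of them with a group mean of 4, and no fall. Of all probe sets with an overall mean of at least 4, 18.61% were called in either direction in epicardial fat. The share was 32.99% in omental, 28.77% in perirenal, 26.37% in sternal and 24.77% in subcutaneous fat. Whether KLF genes exceeded these shares was not tested, so the counts do not set the family apart. KLF13, a factor that promotes adipocyte differentiation, was called in all 5 depots, as were 24 of all probe sets. Its epicardial levels were 6.81, 7.00, 6.49, 5.28 and 6.46 at 7 days and 7.25, 7.66, 7.61, 7.40 and 7.48 at 28 days. In each depot no 28-day array lay below a 7-day array. The rises were 1.07 ± 0.20 in epicardial (adjusted p = 0.000306), 0.87 ± 0.20 in omental (0.00148), 0.89 ± 0.20 in perirenal (0.00151), 0.70 ± 0.20 in sternal (0.0201) and 0.91 ± 0.21 in subcutaneous fat (0.00341). The sternal call was lost without array B (adjusted p = 0.0841). The omental call was lost after quantile normalization (0.62, adjusted p = 0.0561), and both the sternal and the subcutaneous call without the CKM arrays. A difference of the rise between the depots was not called (adjusted p = 0.864). At 28 days KLF13 was lowest in omental fat, with 6.91, 6.77, 6.74, 6.89 and 7.00 against 7.00 and above elsewhere (-0.62 ± 0.10, adjusted p = 0.000766).

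KLF7, which restrains adipocyte differentiation in cultured cells, rose by 1.45 ± 0.22 in epicardial (adjusted p = 1.78e-05), 1.14 ± 0.22 in omental (0.000184) and 1.18 ± 0.22 in perirenal fat (0.000154). Epicardial arrays went from 7.23, 6.27, 7.06, 7.84 and 6.82 to 8.50, 8.40, 8.58, 8.86 and 8.12, and in none of these 3 depots did the ages overlap. The rises remained called when any 1 array was left out and after quantile normalization. In sternal (0.62 ± 0.22, adjusted p = 0.0788) and subcutaneous fat (0.38 ± 0.23, adjusted p = 0.351) no rise was called, and the difference between the depots missed the threshold (adjusted p = 0.0711). The KLF7 probe set, like that of FOXO6, can bind other sequences.

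KLF6, an early factor of adipogenesis, rose in perirenal fat from 3.82, 3.92, 4.04, 4.40 and 4.41 to 5.02, 5.20, 5.28, 4.40 and 5.28 (0.92 ± 0.17, adjusted p = 0.000191), with array N alone inside the earlier range. KLF6 rose in subcutaneous fat as well (0.60 ± 0.18, adjusted p = 0.0297), a call lost in 6 of the fits that left out 1 array (adjusted p up to 0.120) and after quantile normalization (0.33, adjusted p = 0.304). KLF3, a repressor of adipogenesis, rose by 0.50 in perirenal and 0.56 in subcutaneous fat, with adjusted p up to 0.0763 and 0.0617 when 1 array was left out (arrays A, D or M and arrays A or I) and 0.222 and 0.0937 after quantile normalization. KLF12, a repressor, rose by 1.25 ± 0.35 in subcutaneous fat (adjusted p = 0.0175; 0.0889 without array F), from between 6.09 and 7.24 to between 7.67 and 8.24. KLF9, a glucocorticoid and thyroid hormone responsive factor, did not pass the test in any depot: its largest change was 0.26 ± 0.12 in perirenal fat (adjusted p = 0.204), and 18 of its 49 values were 7.39.

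**Figure D3:**
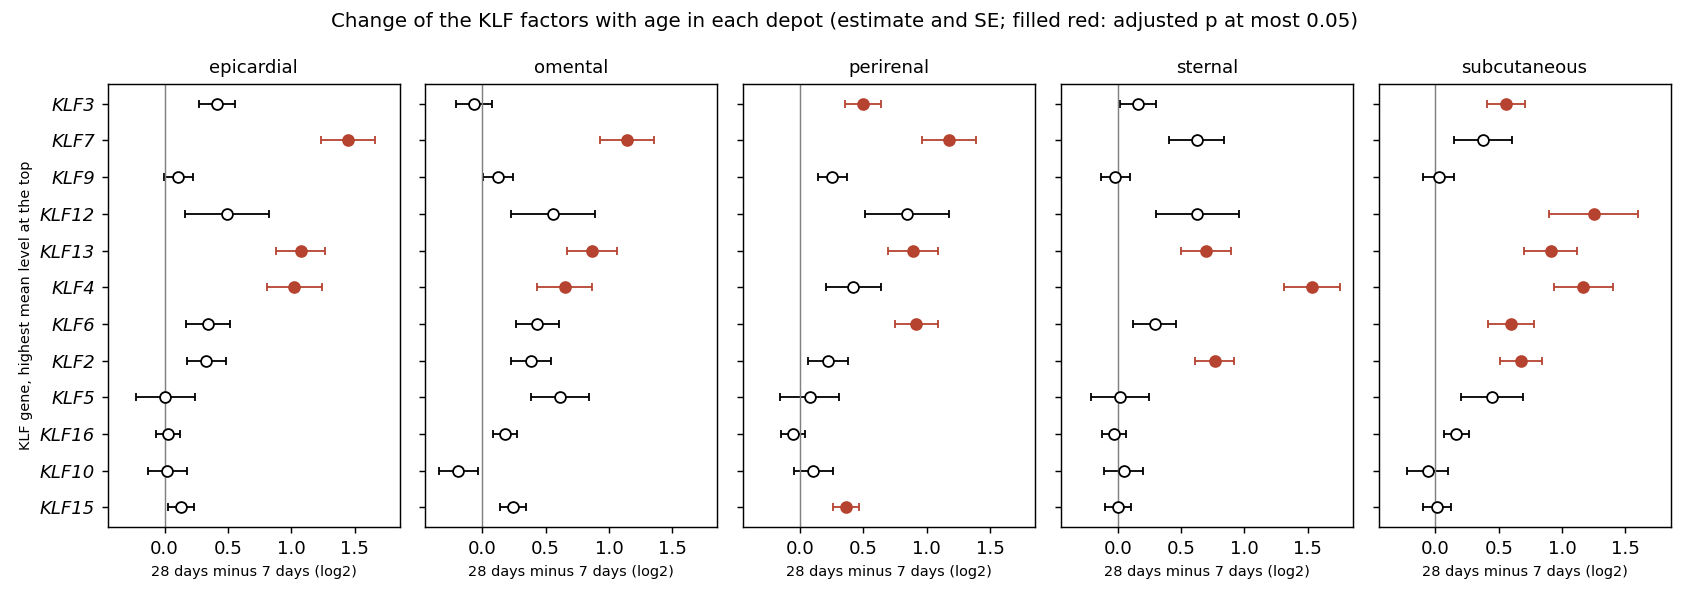
Change between 7 and 28 days (log2, point and SE) of the 12 KLF genes in each depot, ordered by mean level, with called changes filled in red. KLF13 is filled in all 5 panels, KLF4 in 4, KLF7 in the 3 panels on the left, and KLF9 in none.

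KLF4, which is active early in adipogenesis and is also induced by stress, rose in 4 depots. Sternal fat read 5.62, 5.62, 5.61, 5.62 and 5.99 at 7 days and 6.78, 6.47, 7.06, 7.94 and 7.88 at 28 days (1.53 ± 0.22, adjusted p = 2.87e-06). The rise was 1.17 ± 0.23 in subcutaneous (adjusted p = 0.000853), 1.03 ± 0.22 in epicardial (0.00205) and 0.65 ± 0.22 in omental fat (0.0363), without overlap of the ages. Perirenal fat changed by 0.42 ± 0.22 (adjusted p = 0.296). The omental call was lost in 6 of the fits that left out 1 array (adjusted p up to 0.0975) and after quantile normalization (0.40, adjusted p = 0.303). At 7 days KLF4 was lowest in epicardial fat, with 5.85, 5.02, 4.54, 5.83 and 5.02 (-0.71 ± 0.16 against the other depots, adjusted p = 0.0114; 0.0709 without array G). At 28 days KLF4 was 0.55 higher in sternal and 0.67 higher in subcutaneous fat, calls lost without sternal array N or O (adjusted p up to 0.155) and, for the subcutaneous one, when any 1 of 15 arrays was left out (up to 0.183). KLF2, a factor of endothelium that inhibits adipocyte formation, rose by 0.77 ± 0.16 in sternal (adjusted p = 0.000757) and 0.67 ± 0.16 in subcutaneous fat (adjusted p = 0.00619), without overlap of the ages in either. The subcutaneous rise of KLF2 was not called after quantile normalization (0.42, adjusted p = 0.206).

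Immediate early genes, which respond within minutes to stimuli and to handling of tissue, were set beside KLF4 from a list chosen after these values had been seen. FOS read 7.09, 3.57, 4.03, 5.19 and 4.94 in sternal fat at 7 days and 4.62, 5.34, 8.94, 10.79 and 10.22 at 28 days. The sternal arrays N and O, highest in KLF4, were also highest in FOS and EGR1 (7.66 and 7.37 in EGR1), and arrays I and J, lowest in KLF4 at that age, were lowest in FOS. In omental fat at 28 days array N was likewise highest in KLF4 (6.97), FOS (8.33) and EGR1 (5.36). Omental array J was lowest in each (6.51, 4.90 and 3.67). Epicardial, perirenal and subcutaneous fat at that age did not show this order. Subcutaneous array J was highest in KLF4 (7.83) and lowest in FOS (7.98), while N was highest in FOS (8.94) with 6.94 in KLF4. Perirenal array M was highest there in FOS (8.95), with 6.35 in KLF4. FOS rose by 3.02 ± 0.84 (adjusted p = 0.0194), EGR1 by 2.12 ± 0.58 (adjusted p = 0.0174) and JUN by 1.41 ± 0.34 (adjusted p = 0.00610) in sternal fat, 3 of the 10 genes of the list against 2.47% of all probe sets. In subcutaneous fat 5 of the 10 rose, JUN, JUNB, JUND, EGR3 and DUSP1, against 7.68% of all, and in epicardial and omental fat, where KLF4 was also called, none was. In perirenal fat, where KLF4 was not called, 1 of the 10 rose, JUN by 1.07 (adjusted p = 0.0394), against 6.23% of all probe sets. The part of tissue handling in the KLF4 rise was not tested.

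**Figure D4:**
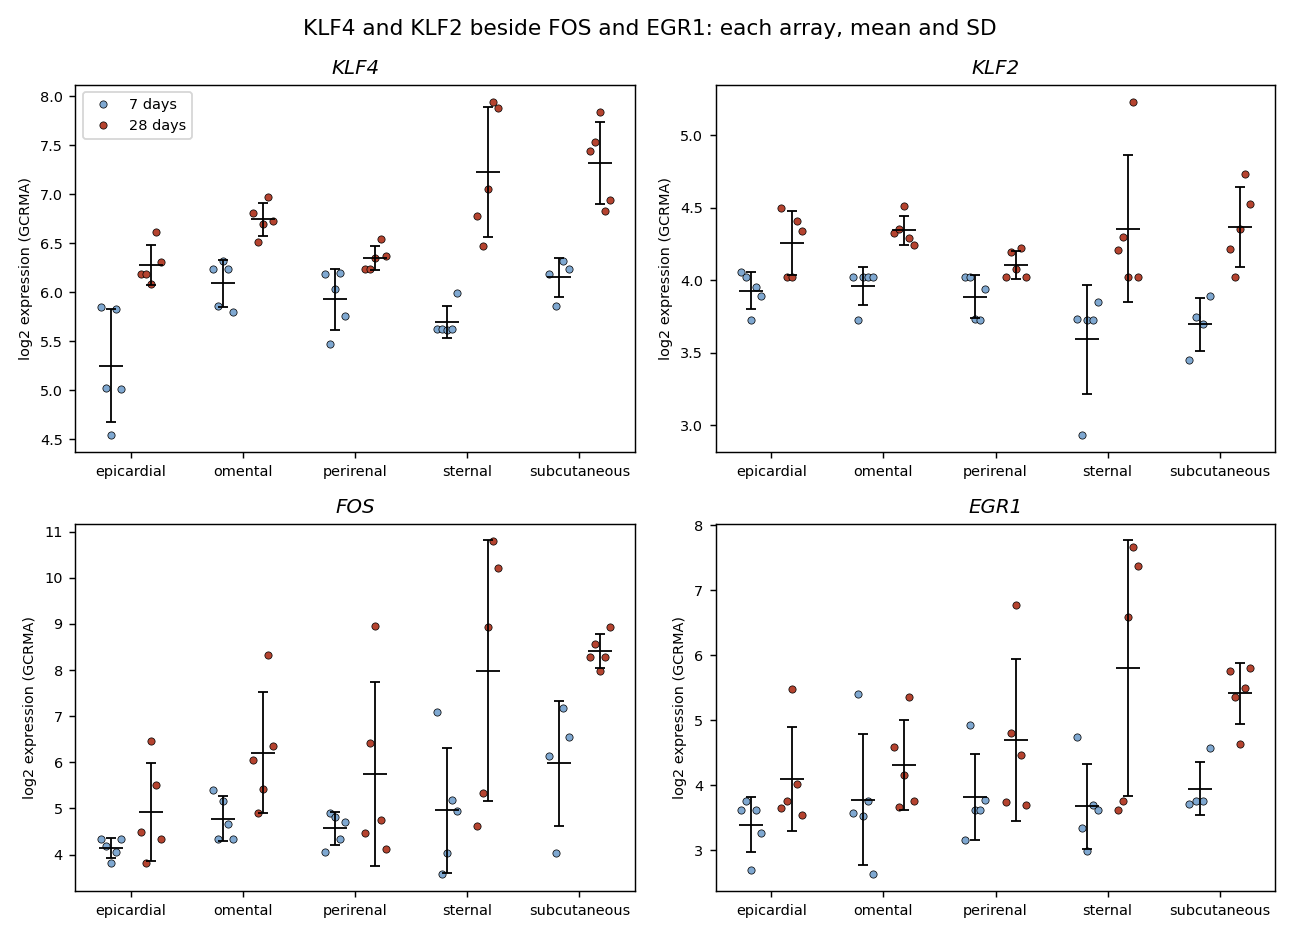
Log2 levels of KLF4, KLF2, FOS and EGR1 on every array by depot and age, with bars for mean and SD of 4 or 5 arrays. KLF4 is higher at 28 days in epicardial, omental, sternal and subcutaneous fat without overlap, while FOS spreads from 4.62 to 10.79 in sternal fat at 28 days.

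HES1 marked perirenal fat at 28 days. It read 3.91, 3.87, 4.13, 4.01 and 3.87 at 7 days and 4.38, 4.50, 4.70, 4.65 and 5.05 at 28 days, above every array of the other depots at that age, which reached 4.23. HES1 rose by 0.70 ± 0.12 (adjusted p = 0.000104) and was 0.71 ± 0.07 above the other depots (adjusted p = 4.25e-06). Both calls held when any 1 array was left out and after quantile normalization. All 3 HES genes rose in omental fat, HES1 by 0.37, HES2 by 0.22 and HES4 by 0.41, with later arrays overlapping the earlier ones, and the HES1 call there was lost in 7 of the fits that left out 1 array (adjusted p up to 0.209). After quantile normalization none of the 3 was called there, with HES1 at 0.04 (adjusted p = 0.948), HES2 at -0.08 (0.719) and HES4 at 0.27 (0.223).

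Ligands, receptors, processing enzymes and nuclear partners of Notch, which act upstream of HES genes, were measured by 22 probe sets. In perirenal fat 5 rose and 2 fell with age, where 6.23% of all probe sets rose and 3.09% fell. The ligands JAG1 and JAG2 rose by 0.68 and 0.31, RBPJ, the DNA-binding partner of Notch, by 0.56, the coactivator MAML2 by 0.65 and the glycosyltransferase MFNG by 0.63. The gamma-secretase subunit APH1A and the corepressor TLE3 fell by 0.73 and 0.30. JAG1 was also called as a rise in epicardial (0.66), omental (0.88) and subcutaneous fat (0.62), where HES1 rose in omental fat only. In sternal fat at 28 days 7 of the 22 were lower than in the other depots, against 18.4% of all probe sets, and none higher, and in perirenal fat at that age JAG2 alone was higher (0.30).

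GATA6, a factor of mesothelium and cardiac precursors, lay near the lowest signal except in epicardial and omental fat. At 28 days it read 3.55, 2.86, 2.78, 2.93 and 2.57 in epicardial and 3.05, 2.50, 2.69, 2.70 and 3.02 in omental fat, and no array of the other depots exceeded 2.52. The epicardial difference was 0.37 ± 0.09 (adjusted p = 0.0326) and the omental one 0.18 ± 0.09 (adjusted p = 0.375). At 7 days 1 epicardial array, D, reached 4.58 and 1 omental array, C, 3.78. The highest epicardial value at 28 days was that of array I, the one without cardiomyocyte signal. WT1, a gene of mesothelium and epicardium, had a similar split at 28 days. It read 5.03 to 5.81 in epicardial and 4.69 to 7.65 in omental fat and at most 4.31 in the other depots. WT1 is 1 of 4 measured mesothelium markers. Group means of KRT8 at 28 days were 3.80 and 3.91 there, against 3.04 to 3.57 elsewhere. KRT19 stayed at 2.49 to 2.55 in all depots, and LRRN4 was highest in sternal fat (2.64). At 7 days epicardial array D, highest in GATA6, had the lowest epicardial WT1 value, 2.73. Of 4 measured cofactors of GATA proteins, none differed in epicardial or omental fat at 28 days, and the haematopoietic partner TAL1 differed by 0.67 in perirenal and by -1.09 in sternal fat.

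SIX4, a factor of muscle precursors, was called in no comparison but had wide spread in sternal fat at 28 days, where array J read 6.46, O 5.01, I 4.17, M 3.80 and N 3.56. Arrays J and O were also highest there in the skeletal muscle list, at 7.72 and 5.55. At 7 days the highest sternal SIX4 value was 5.65 on array E, whose muscle list was 2.70. Subcutaneous arrays read between 4.37 and 5.22 at both ages (0.58 ± 0.26 above the other depots at 28 days, adjusted p = 0.336). Of 3 measured cofactors of SIX-type proteins, DACH1 was 0.59 higher in epicardial fat at 28 days. Of the TBX transcription factors only TBX6, a factor of paraxial mesoderm, was called. Its levels in subcutaneous fat at 28 days were 3.13, 2.88, 2.49, 2.94 and 2.78 and the 4 arrays at 7 days all lay at 2.49, the lowest value of the table, as did 30 of all 49 arrays. The change was called (adjusted p = 0.00402), but a group at the lowest value has no spread of its own and its level is only a bound, so no size is given.

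The change with age differed between the depots for 7 of the 72 (FOXP2, FOXP4, SOX4, TWIST1, FOXO6, SOX5 and TBX6), against 9.17% of all probe sets. Among entries with an overall mean of at least 4 the share was 17.6%, against 28.5% of all probe sets at that level. Each change was also set against the mean change of the other 4 depots. In subcutaneous fat, where 1.65% of all probe sets were called, FOXP2 rose 1.58 ± 0.26 more than elsewhere (adjusted p = 0.000436) and TWIST1 0.81 ± 0.17 more (adjusted p = 0.00824). TBX6 was called too (adjusted p = 0.0271), from a 7-day group at the lowest value. FOXP4 rose 0.64 ± 0.11 more in omental fat (adjusted p = 0.000446), where 3.97% of all were called. That size is uncertain too, since part of its omental 7-day values lie at or next to the lowest value. In sternal fat (5.52% of all) SOX4 changed by -0.59 against a mean of 0.96 in the other depots (adjusted p = 0.00124) and SOX5 by -0.52 against 0.36 (adjusted p = 0.0221). No entry was called in epicardial or perirenal fat, with 0.146% and 1.27% of all. Without the CKM arrays the differences of FOXP2, TWIST1 and SOX5 were no longer called (adjusted p = 0.0732, 0.0909 and 0.299), and SOX5 was also lost without sternal array G, N or O (adjusted p up to 0.0636). After quantile normalization the interaction of FOXO6 (adjusted p = 0.128), TWIST1 (0.118) and SOX5 (0.0969) was not called.

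**Figure D5:**
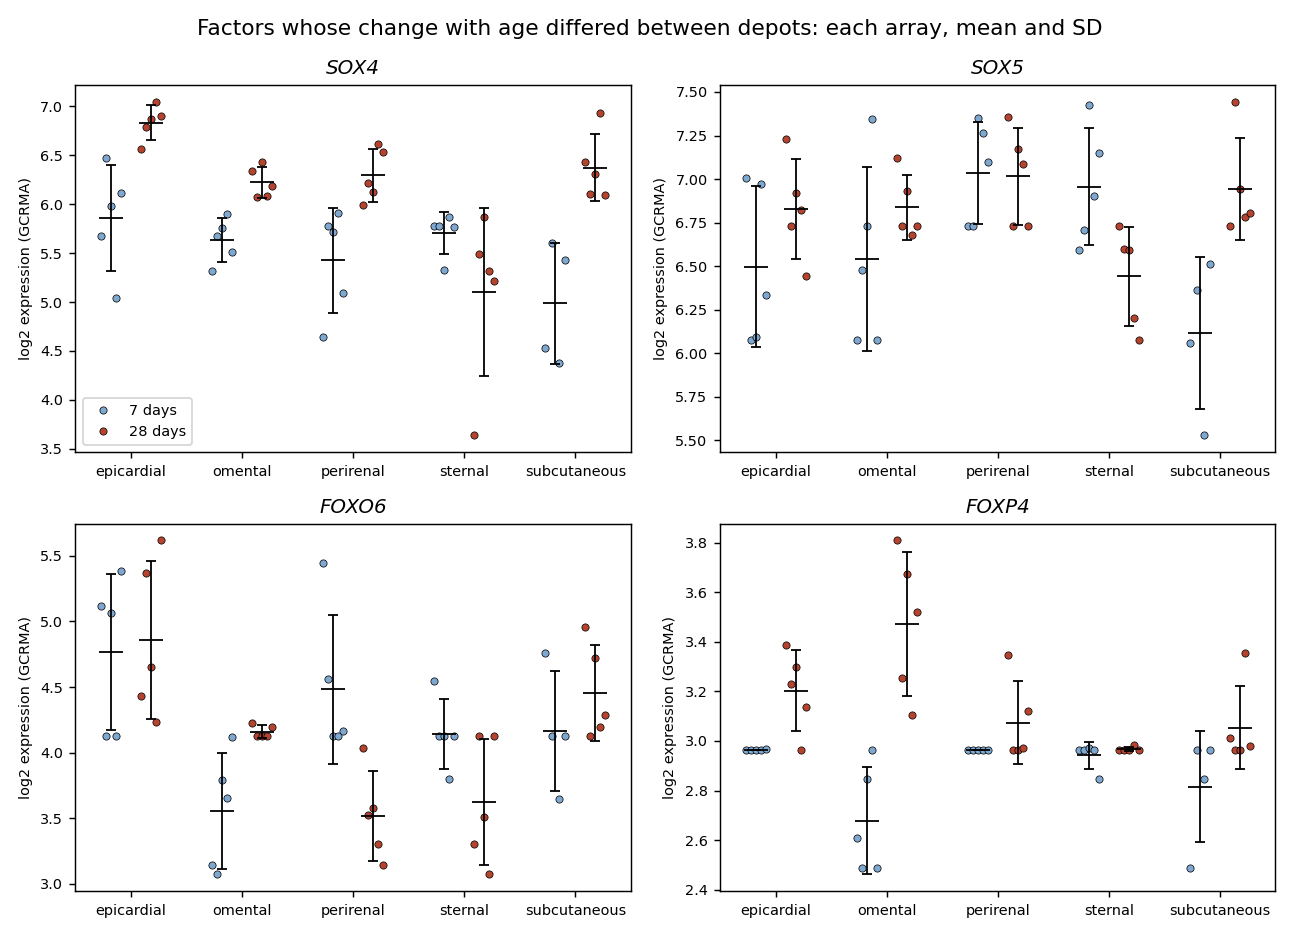
Log2 levels of SOX4, SOX5, FOXO6 and FOXP4 on every array by depot and age, with bars for mean and SD of 4 or 5 arrays. The mean of SOX4 is higher at 28 days in every depot but sternal fat, and FOXO6 falls in perirenal fat. FOXP4 is higher in omental fat at 28 days (3.11 to 3.81, still low) than at 7 days.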

How the data were processed

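Total RNA of 5 adipose depots of lambs was hybridised to human Affymetrix expression arrays. Deposited values are log2 levels per probe set, computed by the authors with GCRMA and affy (background from probe sequence, normalization, summary; no version is stated in the sources read). Of 10273 probe sets, 9780 carry 1 symbol in the platform annotation, 6 several and 487 none. Of the 72 selected symbols, 69 occur in the sheep RefSeq table. Precision is limited by the number of arrays.

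Linear models (limma 3.58.1, R 4.3.3) were fitted to the deposited values of all probe sets, 1 model per age over 5 depots and 1 over all 10 groups for changes with age, with Benjamini-Hochberg adjustment over all probe sets per contrast at 0.05. Errors are SE of the fit. The members, gene lists and tests were chosen with earlier results of these data known, and the immediate early list after seeing these values. Named genes were those with the highest mean over all arrays in each family, up to 3 higher and 2 lower called members per depot and age, up to 3 rises and 3 falls per depot, and the 5 smallest interaction p-values; others were named after their values were seen. Alternatives were quantile normalization, a minimum mean of 4, a replicate block, a mean-variance trend, and leaving out each array or the 9 arrays of sternal or subcutaneous fat where CKM exceeded 4. Leaving out epicardial array I was added after seeing the data. The models were tested on simulated data.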

Additional observations from a re-analysis of the deposited data

Results flagged for a closer look

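For 7 genes the change between 7 and 28 days differed between the depots in the interaction F test, with adjusted p of 0.000822 for FOXP2, 0.00172 for FOXP4, 0.00496 for SOX4, 0.0129 for TWIST1, 0.0244 for FOXO6, 0.0297 for SOX5 and 0.0451 for TBX6 (limma). In 16 of 162 groups of named members 1 array stood far from the others, judged by its gap to the nearest array as a share of the group's range, where chance gives about 1 in 20. The share was 1 for KLF2 in omental fat at 7 days (array D) and for SIX4 in epicardial fat at 28 days (array L), and 0.997 for SIX4 in omental fat at 28 days (array M). In these 3 groups the other arrays lay at or next to a value repeated within the probe set. Sternal fat held 8 of the 16. At 7 days these were KLF4 on array E (0.963), KLF3 on array D (0.778), and array G for SOX6 (0.842), SOX4 (0.804) and KLF7 (0.757). At 28 days array N stood apart for SOX6 (0.823), KLF2 (0.770) and FOXJ3 (0.759). In subcutaneous fat the shares were 0.938 for KLF13 at 7 days (array G), and 0.833 for FOXO3 (array J) and 0.822 for IRX5 (array I) at 28 days. In epicardial fat at 28 days they were 0.781 for FOXO3 (array J) and 0.767 for IRX5 (array O, 4.93 beside 3.49 for the next).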

How the results depend on the processing

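The 28 named members had 104 called values. The mean-variance trend lost 3 of these calls, quantile normalization lost 38 and turned 2 (FOXO3 to 0.0334 and HES1 to 0.0906 in sternal fat at 28 days), leaving out the 9 CKM arrays lost 36, and 46 were lost in at least 1 fit without a single array. With a minimum mean of 4 all 65 values that could be tested were called. The adjustment then ran over 1752 probe sets. In the main fit 57.1% of these differed between the depots at 28 days, against 20% of all. Adjustment within such a set is milder, so keeping calls already made is a weak check. The cause of each loss was not tested.

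Replicate numbers were not taken to pair the arrays, since the labels do not define them as animals. The other reason was that not every pair had a correlation of deviations above 0.1, which arrays of 1 animal need not reach. The paper describes each age as 5 depots from 5 animals, while the labels hold 7 numbers at 7 days and 8 at 28 days. Of same-numbered pairs 6 of 33 at 7 days and 12 of 39 at 28 days exceeded 0.1 (medians 0.046 and 0.057), against 15 of 197 and 12 of 211 of the other pairs, so arrays of 1 number may share an animal. With the number as a fixed replicate block within an age, 15 of 55 calls were lost. At 7 days these were FOXN3 (between the depots and perirenal), FOXL1 and SOX15 (perirenal) and FOXO3 (epicardial). At 28 days they were KLF6 (between the depots and perirenal), FOXO6 and KLF7 (perirenal), TWIST1 (epicardial), FOXO3 (sternal), and KLF13 and KLF4 (sternal and subcutaneous). The numbers of members called became 5 between the depots, 1 in omental and 1 in perirenal fat at 7 days, and 4 in epicardial and 2 in perirenal fat at 28 days. With a random replicate block (consensus correlation 0.0106) no call of the changes with age was lost.

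Counts of members called under the alternatives, here and in other passages, are given without the share of all probe sets called in the same fit. They therefore do not tell a shift of the members from a shift over the whole table. The counts moved as follows. A minimum mean of 4 left 17 members and 1752 probe sets, so these counts are out of 17 and the adjustment ran over fewer tests. Called between the depots were 6 at 7 days and 11 at 28 days. At 7 days 4, 1 and 0 were called in omental, perirenal and sternal fat. At 28 days 3 and 1 were called in epicardial and omental fat, and between the ages 7 in omental fat. Quantile normalization gave 5 between the depots, 1 in omental and 1 in subcutaneous fat at 7 days, 5 in sternal fat at 28 days, and 2 and 8 for omental and subcutaneous fat between the ages. Without the CKM arrays they were 1 between the depots and 2, 1, 1 and 0 in epicardial, omental, perirenal and sternal fat at 7 days, 6 in sternal fat at 28 days, 2 and 3 for sternal and subcutaneous fat between the ages, and 4 for the interaction.

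Leaving out 1 array at a time gave ranges of 2 to 6 between the depots at 7 days and 16 to 21 at 28 days. Against the other depots they were 1 to 5, 0 to 1, 1 to 3, 0 to 1 and 0 to 1 at 7 days and 3 to 8, 3 to 4, 2 to 6, 8 to 17 and 4 to 7 at 28 days, in epicardial, omental, perirenal, sternal and subcutaneous fat. Between the ages they were 5 to 6, 5 to 12, 7 to 14, 3 to 4 and 10 to 13 in the same order, and 5 to 9 for the interaction. At 7 days the lowest epicardial count came without array G and the highest count between depots without omental array C; the perirenal count was 1 when any 1 of 16 arrays was left out. At 28 days the lowest epicardial count came without array J and the lowest perirenal count without array J. Without epicardial array I, 18 members differed between the depots at 28 days.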
